A study of Mus musculus with 14 samples.

Results

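The 10 immediate early genes Fos, Fosb, Junb, Arc, Egr1, Egr2, Npas4, Nr4a1, Ier2 and Dusp1 were followed in the hippocampus of MRL mice and their controls. They were chosen by name with earlier results of these data known, and each matched 1 of the 55536 Ensembl genes in the count table. The shares of all genes printed beside counts of members are therefore a description. All 10 passed the filter on low counts, which left 38070 genes. RNA was sequenced from the hippocampus of mice aged 10 months, from 4 MRL mice, 4 MRL-IRAK4-KD mice, 3 C57BL/6 mice and 3 IRAK4-KD mice. MRL mice are B6.MRL-Faslpr/J animals, which carry the lpr mutation of the death receptor gene Fas and develop a lupus-like disease. MRL-IRAK4-KD mice carry that mutation together with a kinase-dead form of IRAK4, the kinase that passes signals from Toll-like and interleukin-1 receptors. IRAK4-KD mice carry the kinase-dead form without the lupus background, and C57BL/6 mice carry neither. All groups share the C57BL/6 background, mice were perfused with cold PBS before the tissue was taken, and the kinase-dead allele is present in every cell of the body. The sex of the mice is not in the labels. Nothing in the labels says whether the mice of a group were littermates, so p-values measure the spread between these mice.

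Immediate early genes are switched on within minutes of a stimulus, without the need for new protein synthesis. In neurons the stimulus is usually synaptic activity: calcium entry and kinases of the CaMK, PKA and ERK pathways phosphorylate the transcription factors CREB and SRF, which are already bound near these genes. Fos, Fosb and Junb encode subunits of the AP-1 transcription factor. Egr1 and Egr2 encode zinc finger factors, Npas4 a factor tied to calcium entry in neurons, and Nr4a1 an orphan nuclear receptor. Arc encodes a synaptic protein that takes part in the removal of AMPA receptors. Ier2 encodes a small nuclear protein, and Dusp1 a phosphatase that switches off MAP kinases. Their RNAs are short-lived, so their levels follow recent activity.

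CREB binds the cAMP response element, TGACGTCA, or its core TGACG. RefSeq promoter entries of GRCm38.p6 (mm10) were at hand for 7 of the 10 genes, namely Fos, Fosb, Junb, Egr2, Npas4, Nr4a1 and Dusp1. In the 250 bases before an annotated start, all 7 held TGACG or its reverse complement CGTCA at least 1 time, against 19.8% of 27025 genes searched the same way. The complete TGACGTCA, which contains both of these cores, was present in Dusp1 and in 1.77% of genes. A CArG box, the site of SRF, was present in Egr2 and in 1.62% of genes. TATAAA, searched on the gene's own strand, was present in Fos and in 8.94% of genes. The AP-1 site, TGAGTCA or its reverse complement TGACTCA, and the EGR site, GCGTGGGCG on either strand, were in none of the 7, against 5.16% and 0.622% of genes. Promoter entries were also at hand for 32 other rapid primary response genes, from a list used further below. Of these, 17 held TGACG or CGTCA, 6 TGACGTCA, 5 TATAAA, 2 a CArG box, 1 the AP-1 site and 1 the EGR site. The promoters of Fos, Nr4a1, Dusp1 and Egr2 follow, since they hold the largest number of cores or a further site. Each is written 5′ to 3′ on the gene's strand with every TGACG or CGTCA in capitals, and bases that GENCODE places in an exon were left out.
Fos promoter, chr12:85473640-85473889, plus strand: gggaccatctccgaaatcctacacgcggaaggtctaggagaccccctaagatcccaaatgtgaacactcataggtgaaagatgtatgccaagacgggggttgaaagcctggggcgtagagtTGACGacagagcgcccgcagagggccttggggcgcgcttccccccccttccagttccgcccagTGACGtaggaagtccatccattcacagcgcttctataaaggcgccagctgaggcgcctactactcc
Nr4a1 promoter, chr15:101266596-101266845, plus strand: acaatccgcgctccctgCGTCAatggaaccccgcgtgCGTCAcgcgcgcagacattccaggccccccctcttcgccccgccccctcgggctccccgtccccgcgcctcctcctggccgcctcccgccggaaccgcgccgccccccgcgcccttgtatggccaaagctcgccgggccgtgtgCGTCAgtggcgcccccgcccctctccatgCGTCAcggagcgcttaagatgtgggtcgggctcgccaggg
Dusp1 promoter, chr17:26508520-26508722, minus strand: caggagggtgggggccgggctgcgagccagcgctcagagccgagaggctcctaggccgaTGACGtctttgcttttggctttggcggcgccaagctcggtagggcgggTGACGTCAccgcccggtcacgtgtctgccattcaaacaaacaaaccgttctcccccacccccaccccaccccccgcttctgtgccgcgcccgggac
Egr2 promoter, chr10:67537619-67537868, plus strand: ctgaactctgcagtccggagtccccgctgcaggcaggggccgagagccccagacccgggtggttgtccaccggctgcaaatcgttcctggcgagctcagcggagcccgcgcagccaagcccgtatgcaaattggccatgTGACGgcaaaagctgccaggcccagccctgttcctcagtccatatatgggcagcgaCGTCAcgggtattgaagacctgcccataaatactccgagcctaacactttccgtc
The cores of Fos started 129 and 66 bases before the start, and those of Nr4a1 between 233 and 40 bases before it. These matches describe letters in the window, not binding.

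The libraries were deep, with 279941472 to 572398312 counts each, and the members were counted between 458 times (Egr2 in MRL-IRAK4-KD replicate 4) and 221339 times (Egr1 in MRL replicate 2). All 14 libraries ran on the same sequencing lane. MRL-IRAK4-KD replicate 4 stood apart. It held the lowest value for 40.6% and the highest for 32.9% of the 16104 genes with a mean of at least 1 CPM (counts scaled to library size, with TMM factors). Its RNA measured 27.4 by Qubit against 39.6 to 43.7 in the others, and its choroid plexus markers were 32.5 times the median of the other 13 mice. IRAK4-KD replicate 3 went against its label: it had 0 counts of Fas-201, the full-length Fas transcript, and 514 of Fas-204, as the lpr groups did, and its striatum markers were 3.645 times the median of the others. The kinase-dead change leaves the Irak4 RNA in place, so its level, 1.54 to 2.72 CPM over the 14 mice, does not check the labels. Values without these libraries stand beside the comparisons that use them.

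Per kilobase of exon, Egr1 and Arc had the highest levels and Egr2 the lowest. The median over the 14 mice was 26.6 CPM per kb for Egr1, 26.1 for Arc, 15.1 for Junb, 11.7 for Nr4a1 and 4.13 for Fos. It was 3.71 CPM per kb for Npas4, 3.69 for Dusp1, 2.47 for Ier2, 1.57 for Fosb and 0.661 for Egr2. The groups kept nearly the same order for every gene. MRL mice had the highest mean and the highest median for all 10 genes, and C57BL/6 mice came next for all 10. The lowest mean was in MRL-IRAK4-KD mice for 8 genes and in IRAK4-KD mice for Junb and Ier2. No neighbours in this order differed at an adjusted p below 0.05 in edgeR. In a whole hippocampus, fewer cells with the RNA and less RNA per cell cannot be told apart.

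**Figure D1:**
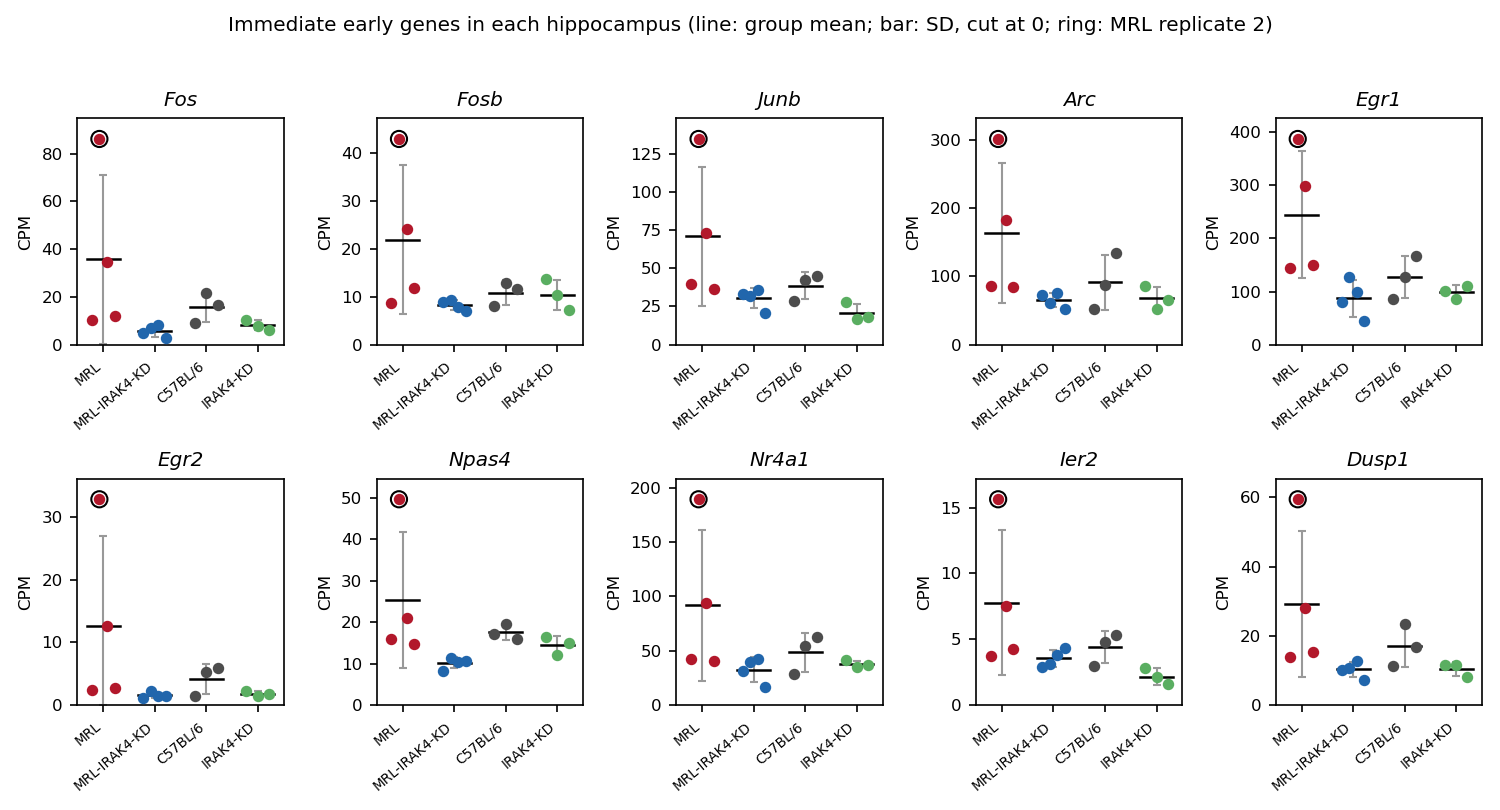
Each panel plots 1 gene in CPM (linear axis from 0) for every mouse by group, with a line at the group mean, a bar for the SD and a ring around MRL replicate 2. That mouse is the highest point in all 10 panels, and the other 3 MRL mice lie closer to the controls.

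MRL mice were set against MRL-IRAK4-KD mice to ask what the kinase activity of IRAK4 does on the lupus background. All 10 genes had higher means in MRL mice, by 2.20-fold for Ier2 to 8.0-fold for Egr2, where 50.2% of all genes had a fold change in that direction. At an adjusted p below 0.05 none of the 10 was called by edgeR's quasi-likelihood test (adjusted p 0.247 to 0.427), a call that 0.0972% of the genes tested received. At an unadjusted p below 0.05 all 10 were higher, against 5.14% of all genes. DESeq2 called 9 of the 10 at an adjusted p below 0.05, all except Ier2, and limma-voom with quality weights called Egr1 and Npas4. The shares above are those of edgeR, and the shares of all genes that DESeq2 and limma-voom called are not given here. The median log2 fold change of the 10 was 1.44, against 0.00 over all genes.

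Fos was measured at 10.4, 86.2, 34.5 and 11.9 CPM in MRL replicates 1 to 4. In MRL-IRAK4-KD replicates 1 to 4 it was 4.78, 7.05, 8.36 and 2.98 CPM. Every MRL mouse lay above every MRL-IRAK4-KD mouse, but MRL replicates 1 and 4 were close to the MRL-IRAK4-KD mice and below 2 of the C57BL/6 mice. The means were 35.7 ± 35.4 CPM (SD, n = 4) and 5.79 ± 2.38 CPM (SD, n = 4), a log2 fold change of 2.63 ± 0.59 (SE, edgeR, adjusted p = 0.247). The fold changes of its relatives were smaller. Fosb averaged 21.9 ± 15.5 CPM (SD, n = 4) against 8.27 ± 1.05, and 1 MRL mouse, replicate 1 at 8.70 CPM, lay within the MRL-IRAK4-KD range of 7.07 to 9.40. Junb, which pairs with Fos proteins, averaged 70.9 ± 45.5 CPM (SD, n = 4) against 30.5 ± 6.70. Its MRL values of 36.3 to 135 CPM began just above the highest MRL-IRAK4-KD value of 36.0. Junb overlaps Prdx2 on the other strand, and the strand setting of the counting is not given in the sources used here, so its counts are uncertain.

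Among the zinc finger factors, Egr1 was at 144, 387, 299 and 150 CPM in MRL replicates 1 to 4, and at 80.8, 127, 98.4 and 44.0 CPM in MRL-IRAK4-KD replicates 1 to 4. The groups did not overlap. The log2 fold change was 1.49 ± 0.35 (SE, edgeR, adjusted p = 0.281). Egr2, a gene of low level, was at 2.34, 32.9, 12.7 and 2.79 CPM in MRL mice while MRL-IRAK4-KD mice had 1.11, 2.29, 1.46 and 1.47 CPM. The groups were separated by the small step between 2.29 and 2.34 CPM, and without MRL replicates 2 and 3 the log2 fold change was 0.70 ± 0.45 in place of 3.00 ± 0.73 (SE, edgeR).

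Npas4 was at 16.0, 49.6, 21 and 14.8 CPM in MRL replicates 1 to 4. In MRL-IRAK4-KD mice it was at 8.29, 11.4, 10.5 and 10.6 CPM. The lowest MRL mouse stood above the highest MRL-IRAK4-KD mouse, and the log2 fold change was 1.32 ± 0.31 (SE, edgeR, adjusted p = 0.276). Nr4a1 averaged 91.7 ± 69.7 CPM (SD, n = 4) against 32.5 ± 11.8, and MRL replicates 1 and 4, at 42.4 and 40.8 CPM, fell inside the MRL-IRAK4-KD range of 16.4 to 42.8. Nr4a1 lies on chromosome 15, 6.67 Mb from Irak4, and Arc lies 19.9 Mb from it. Whether a stretch of the donor strain around the kinase-dead allele reaches them was not tested.

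Arc, the synaptic effector among the members, was at 85.7, 301, 182 and 83.9 CPM in MRL mice. MRL-IRAK4-KD mice had 73.0, 60.8, 75.6 and 52.5 CPM. All MRL values were higher, and the log2 fold change was 1.32 ± 0.38 (SE, edgeR, adjusted p = 0.40). Dusp1, the feedback phosphatase, averaged 29.1 ± 21.2 CPM (SD, n = 4) against 10.3 ± 2.22 without overlap. It shares its locus with Ergic1 on the other strand and with further annotated genes, which makes its counts uncertain. Ier2 averaged 7.77 ± 5.51 CPM (SD, n = 4) against 3.54 ± 0.646, and MRL-IRAK4-KD replicate 4, at 4.31 CPM, was above MRL replicates 1 and 4. In all, 7 of the 10 genes separated the groups completely, against 3.13% of all genes. A two-sided exact permutation test on log2(CPM + 0.1) gave these 7 a p of 0.0286, the smallest that 4 against 4 mice allow, and gave Fosb and Nr4a1 0.0857 and Ier2 0.143.

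The mice of the MRL group were unlike each other. MRL replicate 2 held the highest value of the 14 mice for all 10 genes, while it held the highest value for 8.35% of the 16104 genes with a mean of at least 1 CPM. For 6 of the 10 it was more than 2-fold above the next mouse, which was so for 0.118% of those genes. Its ratio to the median of the other 13 mice was 3.34 for Npas4 and 15.0 for Egr2, with a median of 4.39 over the 10 genes. MRL replicate 3 came next, with a median ratio of 2.4. MRL replicates 1 and 4, with median ratios of 1.1 and 1.2, were below C57BL/6 replicates 2 and 3, at 1.33 and 1.47. At the other end, MRL-IRAK4-KD replicate 4 had a median ratio of 0.602 and the lowest value for 6 of the 10 genes. It held the lowest value for 40.6% of the 16104 genes too. The other 3 MRL-IRAK4-KD mice had median ratios of 0.761 to 0.864.

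**Figure D2:**
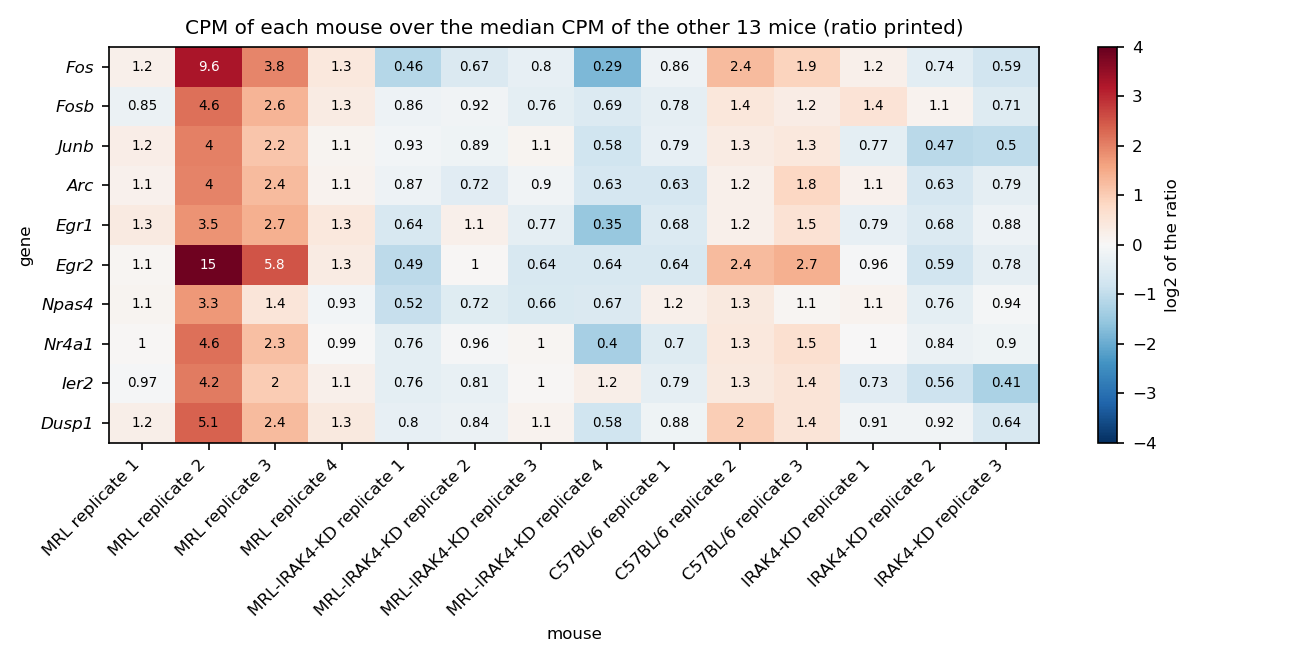
The grid gives, for each gene (rows) and mouse (columns), the CPM over the median CPM of the other 13 mice, printed as the ratio and coloured on a log2 scale with red above 1 and blue below 1. MRL replicates 2 and 3 are red in every row, with the highest ratio at 15 for Egr2, and MRL replicates 1 and 4 are near 1.

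The fold changes followed these mice. Without MRL replicate 2 the median log2 fold change of the 10 genes, MRL over MRL-IRAK4-KD, was 0.86, and without both MRL replicates 2 and 3 it was 0.45. At an unadjusted p below 0.05 edgeR then found 9 and 3 of the 10 genes, and no member at an adjusted p below 0.05. The shares of all genes at that level in these fits are not given here. Fos had a log2 fold change of 1.71 ± 0.45 (SE) without replicate 2 and 0.96 ± 0.39 (SE) without both. Egr1 had 1.18 ± 0.34 (SE) and 0.76 ± 0.33 (SE), and Npas4 had 0.77 ± 0.16 (SE) and 0.61 ± 0.16 (SE). All 10 differences had a positive sign in both fits. Leaving out MRL-IRAK4-KD replicate 4 in place of MRL mice gave a median of 1.31, with 10 of 10 genes at an unadjusted p below 0.05. The share of all genes in that fit is likewise not given here.

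**Figure D3:**
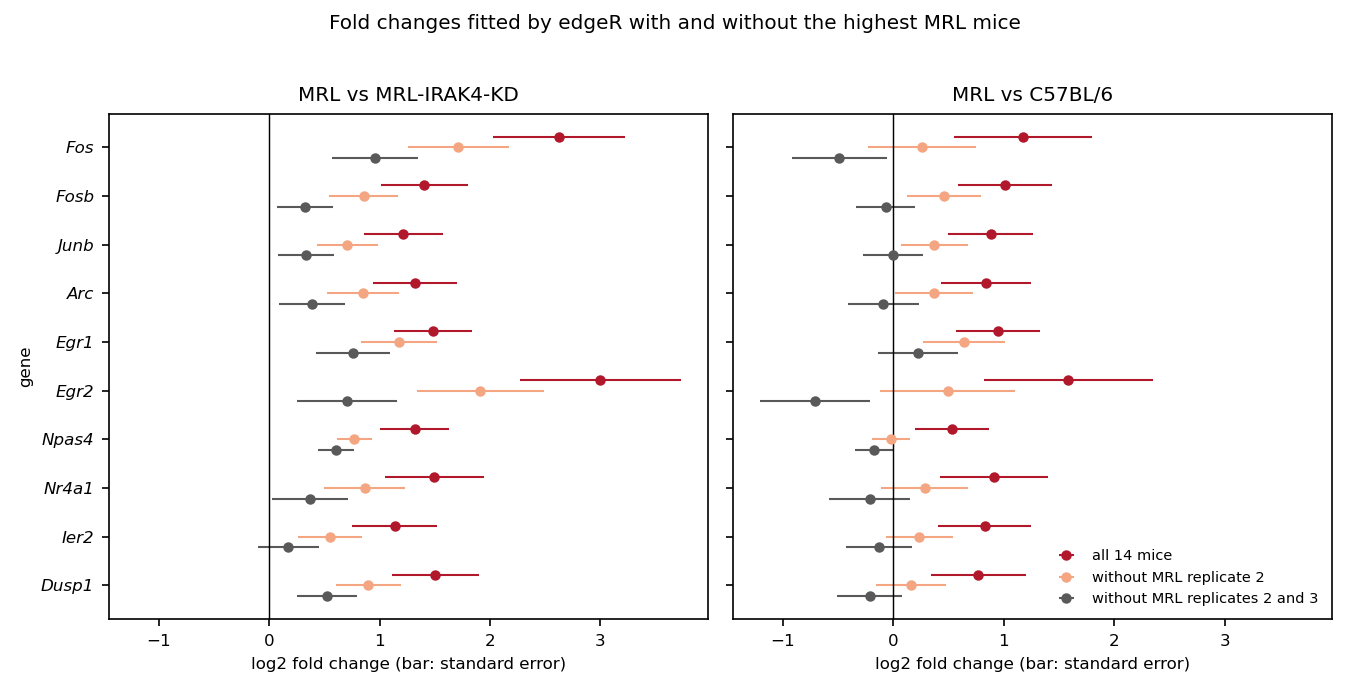
Points are log2 fold changes from edgeR with bars for the standard error, for MRL over MRL-IRAK4-KD (left) and MRL over C57BL/6 (right), fitted with all 14 mice, without MRL replicate 2, and without MRL replicates 2 and 3. On the left all points stay above 0 and move toward it, from a median of 1.44 to 0.86 and 0.45, and on the right the medians are 0.90, 0.33 and -0.15.

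Markers of brain regions also differed between mice. The 6 neocortex markers summed to 258 to 561 CPM in MRL mice against 182 to 348 CPM in MRL-IRAK4-KD mice, and the 8 hippocampus markers to 692 to 1203 CPM against 1002 to 2202 CPM. No marker of either list was at 0 in any group. In MRL replicate 2 the neocortex sum was 2.20 times the median of the other 13 mice, with 4 of the 6 markers highest there, and the hippocampus sum was 0.626 times that median. MRL replicate 3 had ratios of 1.64 and 0.730, and MRL replicate 4 had ratios of 1.73 and 0.682. The 6 pituitary markers summed to 87.2 CPM in MRL replicate 3, where 4 of them were highest, and to 1.57 to 6.34 CPM in the other 13 mice. The 6 choroid plexus markers summed to 65.3 CPM in MRL replicate 2, where 5 of them were lowest, which was 0.151 times the median of the others, and to 5.75 and 6.88 times that median in MRL replicates 3 and 4. The 6 neuron markers summed to 5086 to 5541 CPM and 4778 to 5703 CPM. The 5 blood markers summed to 83.9 to 369 CPM and 52.9 to 193 CPM, highest in MRL replicate 1. The 4 endothelium markers summed to 82.6 to 143 CPM against 55.4 to 72.9 CPM, so these groups did not overlap. The part of these markers in the differences of the 10 genes was not tested.

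**Figure D4:**
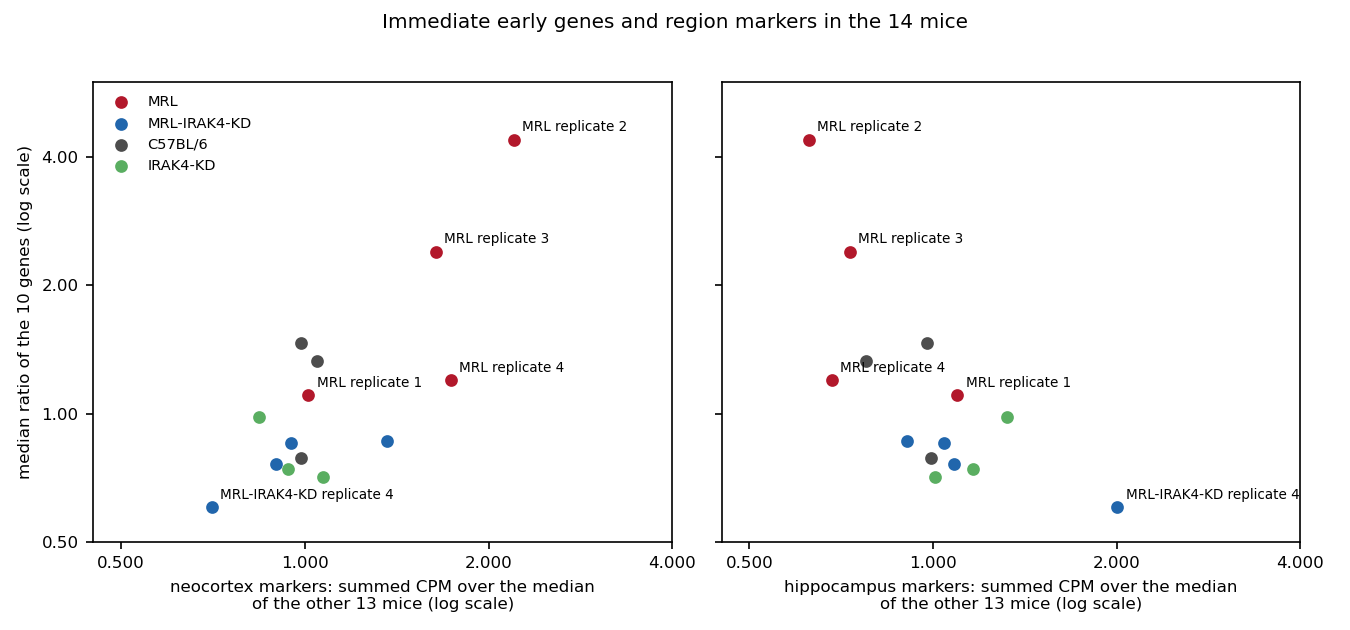
Each point is a mouse, coloured by group. The x axes give the summed CPM of neocortex (left) or hippocampus (right) markers over the median of the other 13 mice, the y axes the median ratio of the 10 immediate early genes, both on log scales. On the left MRL replicate 2 is at 2.20 (x) and 4.39 (y), MRL replicate 3 at 1.64 and 2.4, and MRL replicate 4 at 1.73 and 1.2.

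MRL and C57BL/6 mice differ in the lupus background alone, with IRAK4 intact in both. The 10 genes again had higher means in MRL mice, against 48.1% of all genes. The median of their log2 fold changes was 0.90, with a range of 0.53 for Npas4 to 1.59 for Egr2. None was called at an adjusted p below 0.05 by edgeR, DESeq2 or limma-voom, and edgeR called 0% of all genes there. Of the members, 3 (Fosb, Egr1 and Junb) had an unadjusted p below 0.05 in edgeR, against 3.16% of genes that were higher at that level. That count was 10 without MRL replicate 4, 9 without MRL replicate 1, 1 without MRL-IRAK4-KD replicate 4 or C57BL/6 replicate 2, and 0 without MRL replicate 2, MRL replicate 3 or C57BL/6 replicate 1, or in a fit of only these 2 groups. Shares of all genes at that level in these fits of fewer mice are not given here. No member separated the groups, against 4.47% of genes that did so with higher values in MRL mice. For example, Fos was at 8.99, 21.8 and 16.8 CPM in C57BL/6 replicates 1 to 3, of which 2 were above MRL replicates 1 and 4. Arc was at 52.7, 87.3 and 133 CPM in these mice, again overlapping the MRL range. Without MRL replicate 2 the median log2 fold change was 0.33. Without MRL replicates 2 and 3 it was -0.15, with 8 of the 10 genes below 0. Some marker sums also differed between these groups without overlap. Endothelium markers summed to 54.2 to 66.4 CPM in C57BL/6 mice, below the MRL range given above, and the 5 microglia markers to 206 to 225 CPM against 243 to 311 CPM in MRL mice. Neocortex markers summed to 255 to 267 CPM in C57BL/6 mice. The part of these markers in the differences was not tested.

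Against IRAK4-KD mice, which differ from MRL mice in both genotypes, all 10 genes had higher means in MRL mice, against 47.9% of all genes. Their median on the log2 scale was 1.39. At an unadjusted p below 0.05 edgeR found 10 of 10, against 5.68% of genes that were higher at that level, and at an adjusted p below 0.05 it found 0 of 10, against 0.441% of genes. DESeq2 found 7 and limma-voom 3 at an adjusted p below 0.05, and the shares of all genes that these tools called are not given here. The smallest adjusted p in edgeR was 0.0819 for Junb, which was at 27.7, 17.0 and 17.9 CPM in IRAK4-KD replicates 1 to 3, below the lowest MRL mouse at 36.3. Ier2 followed, at 2.79, 2.14 and 1.57 CPM in IRAK4-KD mice, with a log2 fold change of 1.84 ± 0.44 (SE, edgeR, adjusted p = 0.0990). Junb, Egr1, Egr2, Ier2 and Dusp1 separated the groups, with an exact permutation p of 0.0571, the smallest that 4 against 3 mice allow, where 6.74% of genes did so with higher values in MRL mice. Without IRAK4-KD replicate 3, whose Fas transcripts went against its label, 7 of 10 genes had an unadjusted p below 0.05 and the median was 1.36. Without MRL replicate 2 the median was 0.93, with 7 of 10 genes at an unadjusted p below 0.05. Without both MRL replicates 2 and 3 it was 0.47, with 2 of 10 genes at that level and 9 of 10 above 0. In a fit of only these 2 groups, 6 of 10 had an unadjusted p below 0.05. For the fits of fewer mice, the shares of all genes are not given here. Endothelium markers, at 34.9 to 41.1 CPM in IRAK4-KD mice, and microglia markers, at 199 to 220 CPM, lay below every MRL mouse here too. The endothelium sums were also below every C57BL/6 and MRL-IRAK4-KD mouse. Blood markers summed to 19.8 to 55.3 CPM in IRAK4-KD mice, below the 83.9 to 369 CPM of MRL mice. The part of these markers was not tested. This comparison and those above share the MRL mice.

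In the 3 comparisons without MRL mice the medians were closer to 0, and edgeR, DESeq2 and limma-voom called no member at an adjusted p below 0.05, where edgeR called 0.147%, 0.0972% and 0.0735% of all genes in the comparisons in the order given here. IRAK4-KD mice had lower means than C57BL/6 mice for all 10 genes, at a median log2 difference of -0.56, while 47% of all genes had higher means. Junb and Ier2 had an unadjusted p below 0.05, against 2.13% of genes that were lower at that level, and both separated the groups, as 5.52% of genes did in that direction, with an exact permutation p of 0.10, the smallest that 3 against 3 mice allow. Without IRAK4-KD replicate 3, and likewise without IRAK4-KD replicate 2, C57BL/6 replicate 2 or 3, or MRL-IRAK4-KD replicate 4, none of the 10 had an unadjusted p below 0.05, and the median without IRAK4-KD replicate 3 was -0.50. The count was 1 without MRL replicate 3 or MRL-IRAK4-KD replicate 1, 2 or 3, 3 without MRL replicate 2, and 5 in a fit of only these 2 groups. Shares of all genes at that level in fits of fewer mice are not given here for any of these 3 comparisons. The counts of members in those fits therefore have no rate over all genes beside them. MRL-IRAK4-KD mice also had lower means than C57BL/6 mice for all 10 genes, with a median of -0.56, while 47.6% of all genes had higher means. There Fos (log2 fold change -1.45 ± 0.60 (SE), edgeR, adjusted p = 0.552) and Npas4 (-0.78 ± 0.33 (SE), adjusted p = 0.552) had an unadjusted p below 0.05, against 4.29% of genes. Npas4 was at 17.1, 19.6 and 15.8 CPM in C57BL/6 mice, all above the highest MRL-IRAK4-KD mouse at 11.4. Fos, at 8.99 CPM or more in C57BL/6 mice, likewise lay above the highest MRL-IRAK4-KD mouse at 8.36, and 5.01% of genes separated these groups in that direction. Without MRL-IRAK4-KD replicate 4 none of the 10 had an unadjusted p below 0.05 and the median was -0.40, and none had one without MRL-IRAK4-KD replicate 1 or C57BL/6 replicate 2. The count was 1 without C57BL/6 replicate 3, 3 without MRL replicate 1 or 4, 4 without MRL replicate 2, and 4 in a fit of only these 2 groups. Between MRL-IRAK4-KD and IRAK4-KD mice no member had an unadjusted p below 0.05 in edgeR, against 8.63% of genes. There were 2 such members without MRL replicate 2, and likewise in a fit of only these 2 groups, and limma-voom gave 1. The share of all genes in limma-voom is likewise not given. Junb and Ier2 had higher means in MRL-IRAK4-KD mice and the other 8 lower means, where 49.4% of all genes were higher. Npas4 (log2 fold change -0.51 ± 0.33, SE) and Ier2 (0.71 ± 0.42, SE) separated the groups in opposite directions, as 4.43% and 4.31% of genes did. The median log2 fold change was -0.17 with all mice, 0.03 without MRL-IRAK4-KD replicate 4 and -0.18 without IRAK4-KD replicate 3. Some marker sums did not overlap in these comparisons either. In MRL-IRAK4-KD mice microglia markers summed to 234 to 296 CPM, above C57BL/6 (206 to 225) and IRAK4-KD mice (199 to 220). The 4 oligodendrocyte markers summed to 3956 to 5136 CPM there, above the same groups (2856 to 3739 and 3684 to 3929). Hippocampus markers summed to 1106 to 1453 CPM in IRAK4-KD mice, above C57BL/6 mice (859 to 1099). The part of these markers was not tested.

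Whether the kinase-dead form acted differently on the lupus background was tested as an interaction, the log2 fold change of MRL over MRL-IRAK4-KD less that of C57BL/6 over IRAK4-KD. The interaction was above 0 for all 10 genes, with a median of 1.08, and for 49.7% of all genes. It had an unadjusted p below 0.05 for Fosb (1.34 ± 0.59 (SE)) and Npas4 (1.04 ± 0.47 (SE)), against 1.94% of genes with a positive value at that level, and it was called for none at an adjusted p below 0.05 by edgeR, DESeq2 or limma-voom (edgeR adjusted p 0.914 to 1.00, with 0.00263% of all genes called). Without MRL replicate 2 its median was 0.50 with no unadjusted p below 0.05, and without both MRL replicates 2 and 3 its median was -0.0045. It was 0.91 without MRL-IRAK4-KD replicate 4 and 1.03 without IRAK4-KD replicate 3, with 0 and 1 genes at an unadjusted p below 0.05. That count was 5 without MRL replicate 1 or MRL replicate 4, 3 without MRL-IRAK4-KD replicate 2, 1 without MRL replicate 3, C57BL/6 replicate 3 or IRAK4-KD replicate 2, and 0 without MRL-IRAK4-KD replicate 1 or 3, C57BL/6 replicate 1 or IRAK4-KD replicate 1. For the fits of fewer mice, the shares of all genes at that level are not given here. In limma-voom the interaction was above 0 for 8 of the 10 genes, with a median of 0.64 and no unadjusted p below 0.05. The effects of the kinase-dead form on the 2 backgrounds were thus not shown to differ.

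The members varied more between mice of a group than most genes. The pooled SD within groups on the log2 scale was 0.467 for Npas4 to 1.13 for Egr2, against a median of 0.228 over 16104 genes, which placed the 10 genes at percentiles 89.1 to 99.1. Without MRL replicate 2 they were at percentiles 44.7 (Npas4) to 97.4 (Egr2). For all 10 genes the SD was highest among MRL mice: for Fos it was 1.42 there and 0.373 in IRAK4-KD mice. The genes also varied together. Over the 14 mice the 45 pairs of members had a median Pearson r of 0.895 and a median Spearman rho of 0.785 on log2(CPM + 0.1). By a permutation test with 100000 resamples and Benjamini-Hochberg adjustment over the 45 pairs, all 45 Pearson and 42 Spearman values had an adjusted p below 0.05. The values were not centred on their groups, so differences between groups enter these correlations. Pairs of other genes were not tested for comparison. The median r was 0.802 without MRL replicate 2. It was 0.693 (rho 0.685), with a lowest r of 0.244, after 2 mice were left out for each pair. These were the mice farthest from the median of the pair's first gene, in the order given at the opening. They can differ between pairs. All members of a mouse come from the same library and share its depth and tissue makeup.

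Among 16094 other genes with a mean of at least 1 CPM, those closest to the mean of the 10 members over the 14 mice were Ccn1 (Pearson r = 0.972), Sik1 (0.949), Plk3 (0.938), Tiparp (0.938) and Midn (0.934), given as a description with no test. Ccn1 encodes a secreted matrix protein and Sik1 a kinase that restrains CREB co-activators. Ccn1 was at 22.2 CPM in MRL replicate 2 and between 2.05 and 7.66 CPM in the other 13 mice. Without MRL replicate 2, Ccn1 stayed at rank 1 and the other 4 were at ranks 2 to 8.

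Further lists, also chosen with earlier results of these data known, put the members in their pathway. Of 40 other rapid primary response genes, 21 were higher in MRL mice and 0 lower by unadjusted p below 0.05 against MRL-IRAK4-KD mice, and the median of the log2 fold changes was 0.46, against 5.14% and 6.23% of all genes in the 2 directions. No gene of the lists passed an adjusted p below 0.05 in edgeR in any of the 6 pairwise comparisons. By size of p the leading rapid genes were Arl4d (log2 fold change 1.19 ± 0.28, SE), Apold1 (1.90 ± 0.44), Sik1 (1.45 ± 0.36) and Ccn1 (1.81 ± 0.48), with adjusted p of 0.264, 0.271, 0.320 and 0.335. In the families of the members, Jun averaged 75.6 ± 13.3 CPM (SD, n = 4) in MRL mice against 83.0 ± 12.7 CPM, and Nr4a3 79.9 ± 16.6 CPM against 70.1 ± 16.9 CPM. These 2 genes were chosen after their values were seen.

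Of 29 delayed and synaptic activity-regulated genes, 6 were higher and 0 lower at an unadjusted p below 0.05, with a median log2 fold change of 0.10. Over all genes 5.14% were higher and 6.23% lower at that level, which applies to each list here. Kcnj4, a potassium channel, had 0.38 ± 0.11 (SE), Spred1, an inhibitor of ERK signalling, 0.32 ± 0.12, Rgs4 0.48 ± 0.19 and Tnfaip6 0.52 ± 0.21. Bdnf, the neurotrophin, averaged 45 ± 10.5 CPM (SD, n = 4) in MRL mice against 46.0 ± 4.54 CPM, a gene also chosen after its values were seen. Of 43 upstream kinases and transcription factors, a list that also holds genes of other kinds, 3 were higher and 3 lower, with a median of 0.08. These counts are near the shares over all genes, and the genes named next are those with the smallest p. Rps6ka2, a kinase below ERK, had 0.41 ± 0.12 (SE) and Mef2c, a neuronal transcription factor, 0.90 ± 0.28. Ppp3ca, the catalytic subunit of calcineurin, had -0.40 ± 0.16 and Gria2, an AMPA receptor subunit, -0.27 ± 0.11. Of 20 glucocorticoid and heat shock genes 6 were higher and 1 lower, with a median of -0.03. The leading genes were Sgk1 (0.63 ± 0.14, SE), Per1 (0.83 ± 0.22), Tsc22d3 (0.48 ± 0.14) and Pdk4 (0.50 ± 0.20), all known targets of the glucocorticoid receptor. The edgeR adjusted p of the 12 genes with a log2 fold change named in this paragraph lay between 0.239 and 0.437.

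**Figure D5:**
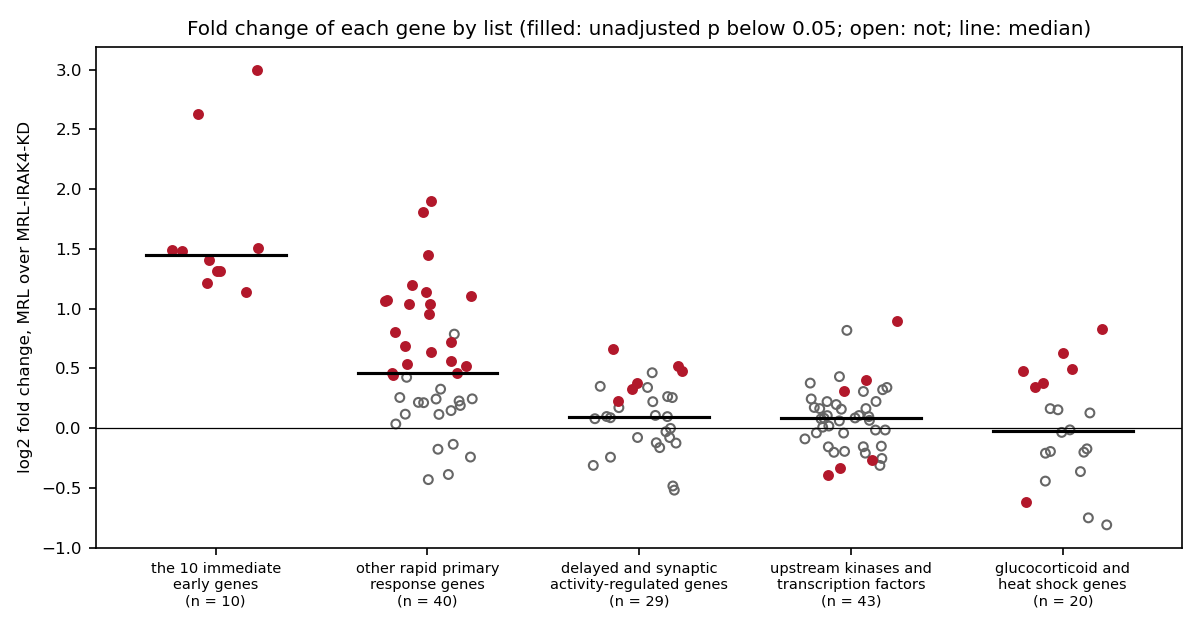
Points are genes, by list, with the log2 fold change of MRL over MRL-IRAK4-KD from edgeR on the y axis, filled at an unadjusted p below 0.05 and open otherwise, and lines mark the medians. The 10 immediate early genes have a median of 1.44, the 40 other rapid genes 0.46, and the remaining 3 lists lie between -0.03 and 0.10.

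MRL replicate 2 held the highest value for 22 of the 37 other rapid genes with a mean of at least 1 CPM, against 8.35% of all genes with that mean. It did so for 8 of 29 delayed genes, 7 of 43 upstream genes and 2 of 20 glucocorticoid and heat shock genes. Other mice were highest more often in the last 2 lists, IRAK4-KD replicate 3 for 12 upstream genes and MRL-IRAK4-KD replicate 4 for 8 glucocorticoid and heat shock genes. These 2 mice held the highest value for 12.4% and 32.9% of all genes with that mean. The ratio of MRL replicate 2 to the median of the other 13 mice was 7.68 for Apold1, an endothelial early gene, and 6.83 for Ccn1. The median ratio was 1.79 over the rapid genes with that mean, 1.19 over the delayed genes and 0.967 over the upstream genes.

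Transcript counts showed how the RNA of some genes was made up, as apportioned among annotated transcripts by StringTie, which is uncertain for transcripts that share exons. The share of Npas4 counts given to retained-intron transcripts was 59.2% to 69.8% in MRL mice and 30.5% to 53.4% in MRL-IRAK4-KD mice. For Nr4a1 it was 2.39% to 5.07% and 1.23% to 2.36%. In both genes every MRL mouse had a higher share than every MRL-IRAK4-KD mouse, for Nr4a1 by the small step from 2.36% to 2.39%, as did 3.75% of the 8016 genes with such transcripts and a mean of at least 1 CPM, with a two-sided exact permutation p of 0.0286 (0.0571 after Benjamini-Hochberg adjustment over the 4 members with such transcripts). MRL mice overlapped both other groups: the Npas4 share was 53.8% to 68.3% in C57BL/6 mice and 42.6% to 62.4% in IRAK4-KD mice, and the Nr4a1 share 2.60% to 6.05% and 2.00% to 5.87%. MRL and MRL-IRAK4-KD shares overlapped for Fosb and Dusp1, with an exact permutation p of 0.686 and 0.200. The lowest Npas4 share was in MRL-IRAK4-KD replicate 4.

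Fosb and Homer1 have truncated protein forms that are tied to neuronal activity. Fosb-201, which codes for the full protein of 338 residues, took 36.9% of Fosb counts in MRL replicate 2 (95% Wilson interval 36.3% to 37.5%), where Fosb-207, with 201 annotated residues, took 57.7% (57% to 58.3%). In the other 13 mice Fosb-207 took up to 24.9%. Fosb-206, annotated with 237 residues, the length of the delta form, took up to 3.95% in all 14 mice. Homer1 encodes a synaptic scaffold, and its short forms are early gene products that uncouple it; this gene was chosen after its values were seen. Transcripts that code for fewer than 250 residues took 48.2% of Homer1 counts in MRL replicate 2 (95% Wilson interval 47.9% to 48.5%) and 44.5% in MRL replicate 3 (44.2% to 44.9%). These intervals treat each count as an independent draw, though counts exceeded reads in each library, so they understate even the counting error. They also leave out the error of apportioning counts among transcripts and the spread between mice. The short forms took 18.7% to 39.6% in the other 12 mice. No test was made of these shares.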

How the data were processed

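Poly(A) RNA from the hippocampus of 14 mice was sequenced. The sources name different library kits (KAPA HyperPrep in the labels, SMART-seq v4 with Nextera XT in the study's methods). The authors aligned reads to mm10 and used StringTie for quantification. Their deposited gene and transcript tables hold whole-number counts that were not normalized. The submitters' processing notes name HISAT2 2.1.0, SAMtools 1.9 and StringTie 2.1.0. Identifiers matched GENCODE M21 with version for all 55536 Ensembl genes, and 26248 tRNA predictions and 97 spike-ins were left out. A deposited lane sheet gave other values per library (reads, 148569712 to 299836957, RNA concentration and library qPCR). Counts exceeded reads in each library, so counting error alone understates the noise.

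The main test was edgeR 4.0.16 (R 4.3.3; quasi-likelihood, robust, TMM) in 1 model of the 4 groups over the 38070 genes with at least 10 counts in total, with Benjamini-Hochberg adjustment over all of them. The study's methods use DESeq2, here (1.42.0) an alternative with limma 3.58.1. CPM values were scaled by TMM, and single genes were tested by exact permutation on log2(CPM + 0.1). The edgeR fit was also run on counts simulated from the fitted dispersions, with no outlying mouse. That run does not show how calls hold with mice such as MRL replicate 2. The named genes were all 10 members, the 4 genes of each further list with the smallest p in MRL against MRL-IRAK4-KD, any list gene past an adjusted p of 0.05 (0 genes), and the 5 genes most like the members. The members and lists were chosen with earlier results of these data known. Alternatives were another scaling, filters, tools, only the groups compared, a replicate block, leaving out each mouse, and a pseudocount of 1. Leaving out MRL replicate 2 with MRL-IRAK4-KD replicate 4, or MRL replicates 2 and 3, was chosen after seeing the data.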

Additional observations from a re-analysis of the deposited data

How the results depend on the processing

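With 4 and 3 mice a group, the exact permutation test cannot go below 0.0571 between an MRL group and a control group. The count of the 10 genes at an adjusted p below 0.05 was 0 in edgeR for all 7 comparisons. For MRL against MRL-IRAK4-KD mice it was 9 with DESeq2 and 2 with limma-voom, and for MRL against IRAK4-KD mice 7 and 3. For other tools, the replicate block and fits that left out mice, the shares of all genes are not given here. Leaving out single mice gave 0 to 0 in 6 comparisons and 0 to 2 for MRL against IRAK4-KD mice, where the 2 genes, Junb and Ier2, passed without MRL replicate 1. Leaving out both MRL replicate 2 and MRL-IRAK4-KD replicate 4 gave 1, Ier2, in that comparison. Another scaling, other filters and fits of only the groups compared gave 0 throughout. The cause was not tested.

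Replicate numbers did not pair the mice: the 19 same-numbered pairs had correlations of -0.25 to 0.37, and 4 of 14 libraries correlated best with their own number. With the replicate block, 1 gene (Egr1) was called for MRL against MRL-IRAK4-KD mice and 1 (Egr1) for MRL against IRAK4-KD mice, and 0 in the other comparisons.

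Without MRL replicates 2 and 3, 8 log2 fold changes of MRL over C57BL/6 turned negative, which was the lowest value over all fits that left out mice. Lowest and highest were -0.49 and 1.49 for Fos, -0.069 and 1.29 for Fosb, -0.090 and 1.23 for Arc, -0.71 and 1.95 for Egr2, -0.17 and 0.73 for Npas4, -0.21 and 1.17 for Nr4a1, -0.13 and 1.08 for Ier2, and -0.21 and 1.08 for Dusp1. That of Npas4 was also negative without MRL replicate 2 (-0.018) and without that mouse and MRL-IRAK4-KD replicate 4 (-0.024). Over IRAK4-KD mice, Fosb went from -0.018 without MRL replicates 2 and 3 to 1.36. A pseudocount of 1 left each member's exact permutation p for MRL against MRL-IRAK4-KD on the same side of 0.05.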
